A study of Arabidopsis thaliana with 8 samples.

Results

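Energy-stress transcripts were followed in developing carpels of Arabidopsis thaliana, the organs that fuse to form the pistil. The group held 9 genes of the 27197 loci used, taken by locus: SEN1 (also called DIN1), ASN1 (DIN6), DIN2, DIN10, BGAL4, TPS8, TPS10, TPS11 and AKINBETA1. They were picked because SEN1 and ASN1 stood high in the nga mutant in these same libraries, so their levels in nga against wild type are given as a description, with no test. All 9 were listed above 0 RPKM in every library, and 8 passed the filter on low values, which asked for 1 RPKM or more in at least 2 libraries. DIN2 did not pass it.

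The study set a mutant and an overexpression line of the NGATHA genes against wild type. These genes encode B3-type transcription factors that together direct the formation of style and stigma. All plants were of ecotype Columbia, grown on soil in long days, and each library came from carpels of floral stages 8 to 13 picked by hand from 15 inflorescences. WT had 2 libraries, nga had 3, whose genotype label is nga 1/2/3/4, and 35S:NGA, labelled an overexpression line, had 3. The labels give no alleles for nga, no plant age, and neither the NGATHA gene behind the 35S promoter, a broadly active viral promoter, nor the number of independent lines. Whether the numbered libraries of a group came from separate plants is not said, and if they did not, the p-values reflect technical spread alone.

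Plant cells short of light or sugar switch from growth to the use of reserves. SnRK1, a protein kinase complex with catalytic alpha, scaffold beta and gamma-type subunits, is a central part of that switch, and sugar-rich cells hold it in check partly through trehalose 6-phosphate. Dark-inducible (DIN) genes were first found as transcripts that accumulate in leaves kept in darkness, and several of them, ASN1 foremost, are classical readouts of SnRK1 activity. Their products move nitrogen into asparagine or break down sugars, cell wall chains and branched-chain amino acids.

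Levels are given as RPKM, a read count divided by the gene's length and the library's mapped reads. Differences are on the log2(RPKM + 1) scale with their standard errors, from 1 limma fit over 17786 genes, which understates the change of genes at low RPKM, and a gene was called at a Benjamini-Hochberg adjusted p under 0.05. Mapped reads, recovered from the steps between low values, ran from 23.1 M to 38.3 M. NGA3 ranged from 4.81 to 5.47 RPKM over the WT libraries and from 102 to 166 RPKM over those of 35S:NGA, and NGA4 from 3.83 to 3.97 RPKM over the WT libraries and from 0.123 to 0.248 RPKM over those of nga. In nga NGA3 measured 2.56 to 2.97 RPKM, whereas NGA1 (21.2 to 25.6 RPKM, beside 23.5 and 23.9 RPKM in WT) and NGA2 (7.73 to 14.9 RPKM, beside 9.50 and 8.15 RPKM in WT) overlapped WT. As no alleles are given, the RNA levels of these genes do not check the label beyond NGA3 and NGA4. All 9 carpel marker genes were at 1 RPKM or more in every library, and their sum ran from 400.0 to 501 RPKM. By the file headers, sequencing lane 6 held both WT libraries with nga 1 and nga 2, lane 7 held 35S:NGA 1 and 35S:NGA 2, and lane 8 held the third library of each line. No lane held both 35S:NGA and WT, so a lane term separates these groups only through the nga libraries in lanes 6 and 8. Library nga 2 differed from the others in clock genes, which is taken up beside the values it touches.

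The promoter of SEN1 is shown because SEN1 had the widest range of levels as a ratio of highest to lowest, and that of TPS11 because it carries the same hexamer. The 180 bases before each annotated start were read from TAIR10.1 on the strand of the gene, from chr4:16944698-16944877 (plus strand) and chr2:8108718-8108897 (plus strand), and capitals mark TTATCC, known as the sugar-repressive element.
SEN1: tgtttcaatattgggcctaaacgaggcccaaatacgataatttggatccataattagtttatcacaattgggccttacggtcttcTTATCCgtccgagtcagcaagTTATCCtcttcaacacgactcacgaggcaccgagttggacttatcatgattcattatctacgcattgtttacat
TPS11: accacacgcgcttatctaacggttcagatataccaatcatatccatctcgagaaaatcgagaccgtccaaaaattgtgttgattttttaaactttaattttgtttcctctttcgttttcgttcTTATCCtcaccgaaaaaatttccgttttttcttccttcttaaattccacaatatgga
Both copies in SEN1 read forward, 95 and 74 bases before the start, and the copy in TPS11 lies 57 bases before it.

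Besides TTATCC, 3 motifs were counted in the 250 bases before the start of all 9 genes, on both strands: CACGTG, the G-box bound by bZIP and bHLH factors; ACGT, the core of bZIP sites, which lies inside CACGTG; and AAATATCT, the core of the clock's evening element. TTATCC was found in 4 of the 9 promoters, those of SEN1, ASN1, TPS11 and AKINBETA1, and in 12.5% of the 26699 promoters read in the same way. CACGTG was found in ASN1 alone among them and in 6.58% of all promoters. ACGT was found in 4 of the 9, ASN1, DIN10, TPS8 and TPS10, and in 44.2% of all. AAATATCT was in none of the 9 and in 4.85% of all. Sites of 30 bases are given for ASN1 (minus strand, chr3:17441581-17441610) and AKINBETA1 (plus strand, chr5:7205434-7205463), with CACGTG or the reverse complement of TTATCC in capitals.
ASN1: ttgtcgtgataaCACGTGtacggctctaaa
AKINBETA1: caaaaaaaaagtGGATAAttataaactttt
The ASN1 site begins its motif 167 bases before the start, and the AKINBETA1 site 31 bases before it. The 30 bases around the TTATCC copy of ASN1, 80 bases before the start, overlap AT3G47341. Those around the other copy in AKINBETA1, 112 bases before the start, overlap AT5G00430. All these motifs are matches of letters, with no measurement of binding.

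SEN1 (AT4G35770, chromosome 4, 16944878 to 16946266) encodes a protein with a rhodanese-like domain and is known as a marker of darkness and of ageing leaves. It was almost silent in wild-type carpels, at 1.60 and 1.18 RPKM, from 56 and 39 reads. In nga it stood at 293, 687 and 264 RPKM, from 8746, 25521 and 6914 reads, and in 35S:NGA at 204.9, 35.2 and 173 RPKM. In bulk carpels, more cells with a transcript and more of it per cell cannot be told apart. Every library of either line lay far above WT, and every nga library lay above every 35S:NGA library. The mean was 1.39 ± 0.297 RPKM (SD, n = 2) in WT, 415 ± 236 RPKM (SD, n = 3) in nga and 138 ± 90.2 RPKM (SD, n = 3) in 35S:NGA. Among the 9 genes SEN1 had the 8th highest mean RPKM in WT and the 2nd highest in nga. The difference of nga from WT was 7.31 ± 0.72, 159-fold on that scale. With WT so low it depends on the pseudocount, and was 8.00 with 0.1 and 5.90 with 5 RPKM added.

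ASN1 (AT3G47340, chromosome 3, 17437840 to 17441431) encodes a glutamine-dependent asparagine synthetase, which stores nitrogen in an amino acid with little carbon. It was already present in WT, at 47.7 and 28.2 RPKM. In nga it reached 489, 1210 and 291 RPKM, while 35S:NGA held 128, 47.9 and 137 RPKM. Here 35S:NGA 2 was level with WT 1, while every nga library lay above all others. The mean was 37.9 ± 13.8 RPKM (SD, n = 2) in WT, 663 ± 484 RPKM (SD, n = 3) in nga, the highest mean of the 9 genes there, and 104 ± 49.2 RPKM (SD, n = 3) in 35S:NGA. The nga mutant differed from WT by 3.89 ± 0.64, 14.8-fold. ASN1 overlaps AT3G47341 on the opposite strand by 11 bases, and as the strandedness of the libraries is not stated, reads there cannot be told apart.

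**Figure D1:**
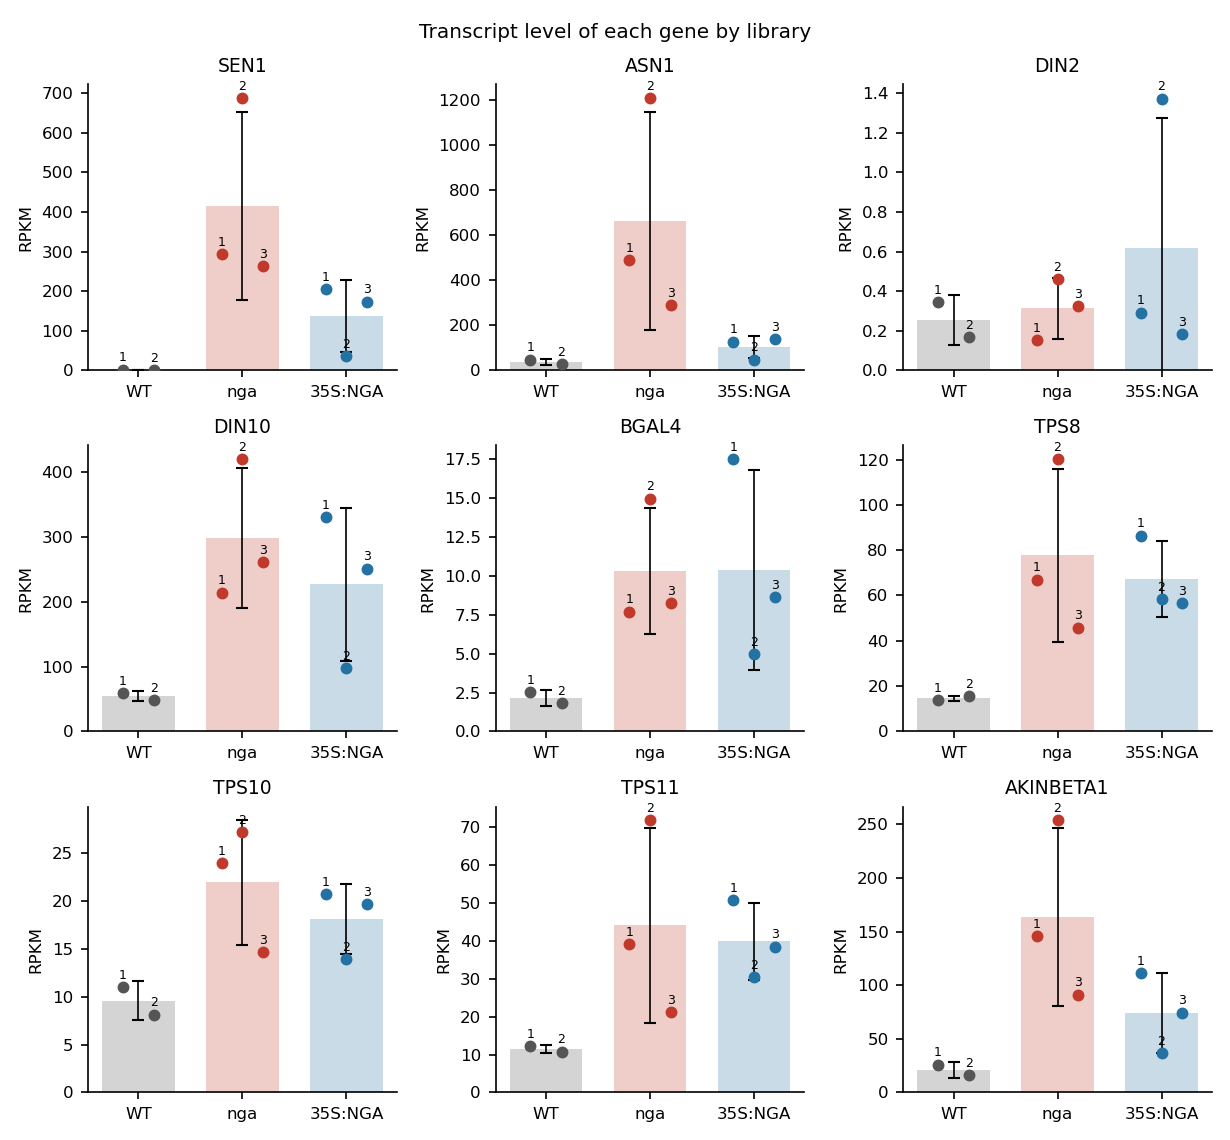
Level of each of the 9 genes in RPKM on linear axes from 0, 1 panel per gene, with 1 point per library carrying its replicate number, bars for the group means and lines for 1 SD (cut at 0 for DIN2). SEN1 goes from 1.18 and 1.60 RPKM in WT to between 264 and 687 RPKM in nga, and nga 2 is the highest nga library in every panel.

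The remaining dark-inducible genes are enzymes of sugar and cell wall breakdown. DIN10 (AT5G20250, chromosome 5, 6833564 to 6836862) belongs to the raffinose synthase family and had the highest mean RPKM of the 9 genes in WT, with 59.4 and 48.5 RPKM. It measured 214, 420.3 and 261.5 RPKM in the nga libraries and 331, 97.9 and 251 RPKM in those of 35S:NGA. Both lines lay above WT and overlapped each other, and nga differed from WT by 2.39 ± 0.49. DIN10 overlaps AT5G20260 on the opposite strand by 82 bases. BGAL4 (AT5G56870, chromosome 5, 23003909 to 23009672) encodes a beta-galactosidase, an enzyme that trims galactose from cell wall chains. It was low throughout, measuring 2.52 and 1.80 RPKM in the WT libraries, 7.70, 15.0 and 8.25 RPKM in those of nga and 17.5, 4.99 and 8.65 RPKM in those of 35S:NGA. The lines again overlapped each other above WT, with a difference of nga from WT of 1.79 ± 0.45. The annotated span of BGAL4, introns included, shares 909 bases with AT5G56880 on the opposite strand. How much of that lies in exons the authors counted is not known, so part of these few reads may come from either gene.

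DIN2 (AT3G60140, chromosome 3, 22216540 to 22220824), a beta-glucosidase gene, was the exception. It measured 0.344 and 0.167 RPKM in the WT libraries, 0.152, 0.460 and 0.326 RPKM in those of nga and 0.292, 1.37 and 0.183 RPKM in those of 35S:NGA, from 9 to 86 reads a library. The groups overlapped in all 3 comparisons. The 86 reads of 35S:NGA 2 set that library apart, and no other library had more than 34. Without the filter on low values its differences from WT were 0.06 in nga and 0.29 in 35S:NGA, the latter with a limma adjusted p of 0.625. At this depth no difference between the groups was detectable for DIN2.

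The signalling genes of the group sit around SnRK1. AKINBETA1 (AT5G21170, chromosome 5, 7205477 to 7208613) encodes a beta subunit of the kinase complex. It measured 25.9 and 15.9 RPKM in the WT libraries, 145.5, 254 and 91.1 RPKM in those of nga and 111, 36.8 and 74.3 RPKM in those of 35S:NGA. The order WT, 35S:NGA, nga was that of SEN1 and ASN1, but here the lines overlapped, 35S:NGA 1 lying above nga 3. The difference of nga from WT was 2.83 ± 0.52, 7.09-fold.

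TPS8, TPS10 and TPS11 are class II trehalose phosphate synthases, proteins with a synthase-like and a phosphatase-like domain that are thought to act in signalling more than in synthesis. TPS8 (AT1G70290, chromosome 1, 26470795 to 26474833) measured 13.8 and 15.5 RPKM in the WT libraries, 67.0, 120.2 and 45.8 RPKM in those of nga and 86.4, 58.3 and 56.7 RPKM in those of 35S:NGA. TPS11 (AT2G18700, chromosome 2, 8108898 to 8112010) measured 12.2 and 10.8 RPKM in the WT libraries, 39.1, 71.9 and 21.2 RPKM in those of nga and 50.7, 30.4 and 38.5 RPKM in those of 35S:NGA. TPS10 (AT1G60140, chromosome 1, 22176934 to 22181740) had the narrowest range as such a ratio, with 11.02 and 8.13 RPKM in the WT libraries, 24.0, 27.2 and 14.7 RPKM in those of nga and 20.7, 13.9 and 19.7 RPKM in those of 35S:NGA. For all 3 genes both lines lay above WT without overlap, and the lines overlapped each other. The nga mutant differed from WT by 2.22 ± 0.36 in TPS8, 1.69 ± 0.43 in TPS11 and 1.09 ± 0.28 in TPS10. These genes have close relatives in the same family, and how the authors counted reads that match several of them is not given in the sources used here.

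Over the 8 genes tested, the median difference of nga from WT was 2.31, beside -0.001 over all 17786 genes. All 8 lay higher in nga without overlap, as did 29.4% of all genes. The genes were chosen on this comparison, so nothing is read from this count. Within lane 6, which leaves WT with 2 libraries and nga with 2, SEN1 differed by 7.56, ASN1 by 4.35, AKINBETA1 by 3.18, TPS8 by 2.54, DIN10 by 2.46, TPS11 by 2.12, BGAL4 by 1.91 and TPS10 by 1.34.

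The comparison of 35S:NGA with WT does not use the nga libraries as an arm, though it shares both WT libraries with the comparison the genes were chosen on. SEN1 rose by 5.52 ± 0.72, 45.9-fold (limma, adjusted p = 0.0451), higher in 3 of 3 libraries, the largest rise of the 17786 genes tested. It was 6.20 with a pseudocount of 0.1 (limma, adjusted p = 0.03) and 4.17 with one of 5, where the call was lost (limma, adjusted p = 0.0658). With the lane as a term it was 6.96 ± 1.40, also without a call (limma, adjusted p = 0.098). The other 7 genes tested were higher than WT in 3 of 3 libraries without passing the threshold. TPS8 came nearest, at 2.097 ± 0.36 (limma, adjusted p = 0.0625). DIN10 differed by 1.89 ± 0.49, BGAL4 by 1.70 ± 0.45, TPS11 by 1.68 ± 0.43 and AKINBETA1 by 1.68 ± 0.52, with limma adjusted p from 0.126 to 0.161. ASN1 differed by 1.34 ± 0.64 and TPS10 by 0.85 ± 0.28, with limma adjusted p of 0.274 and 0.171.

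So 1 of 8 was called higher in 35S:NGA, where 0.0843% of all genes were, 15 in all, and 0 of 8 lower, where 0.0675% were. The median difference was 1.69, beside 0.015 over all genes, and all 8 lay above WT without overlap, as did 23.3% of all genes. The call of SEN1 was lost when WT 1, WT 2, nga 1, 35S:NGA 1 or 35S:NGA 3 was left out, with limma adjusted p of 0.285, 0.384, 0.0833, 0.101 and 0.0883, while the difference stayed between 5.06 and 6.32 without any single library. TPS8 was called without nga 2 and without nga 3, at an adjusted p of 0.0222 without nga 2, and TPS11 was called without nga 3.

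**Figure D2:**
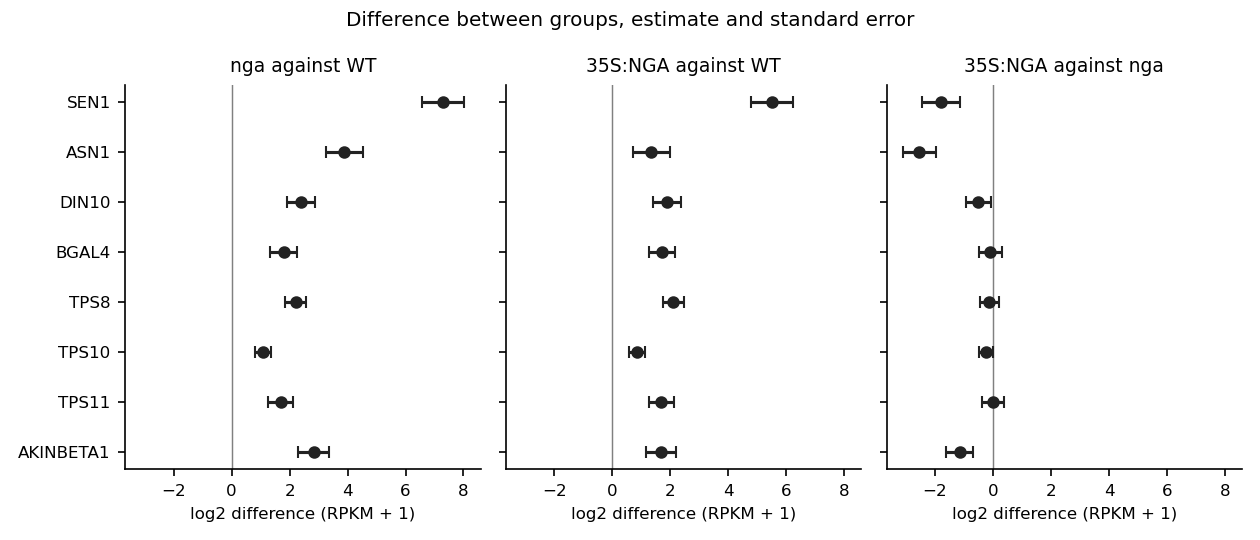
Differences between groups for the 8 genes tested, on the log2(RPKM + 1) scale, with points for the estimates and bars for 1 standard error; the left and right panels are a description. SEN1 lies at 7.31 in nga and at 5.52 in 35S:NGA against WT, and in the right panel ASN1 and SEN1 lie farthest below 0.

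Between the lines, 35S:NGA against nga, ASN1 and SEN1 had the lowest values. ASN1 was lower in 35S:NGA by -2.54 ± 0.57 and SEN1 by -1.79 ± 0.65, and these were the 2 genes whose groups did not overlap, where 12.8% of all genes were lower without overlap. AKINBETA1 followed at -1.14 ± 0.47. With the lane as a term these differences were -1.08 ± 0.84 in ASN1, -0.60 ± 1.15 in SEN1 and -0.29 ± 0.78 in AKINBETA1. The remaining differences were -0.51 ± 0.44 in DIN10, -0.24 ± 0.25 in TPS10, -0.12 ± 0.33 in TPS8, -0.09 ± 0.40 in BGAL4 and -0.01 ± 0.39 in TPS11. In these 5 the lines overlapped, and the sign changed when single libraries were left out, except in TPS10, where it changed with the lane as a term. 1 arm of this comparison is the libraries that picked the genes, so the differences are a description too.

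Lane 8 is the only lane with a library of both lines, nga 3 and 35S:NGA 3. There SEN1 stood at 264 against 173 RPKM, ASN1 at 291 against 137 RPKM and AKINBETA1 at 91.1 against 74.3 RPKM. TPS8, TPS10, TPS11 and BGAL4 were higher in 35S:NGA 3, with ratios of 1.24, 1.34, 1.81 and 1.05, and DIN10 was almost level, with a ratio of 0.961. Of the 9 genes 4 were higher and 5 lower in 35S:NGA 3, without replicates.

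In most of the 9 genes the same library of a line stood highest and the same library lowest. Among the nga libraries, nga 2 was the highest in 9 of 9 genes, as it was in 25.5% of the genes tested, and nga 3 was the lowest in 6 of 9, as in 33.8% of the genes tested. Among the 35S:NGA libraries, 35S:NGA 1 was the highest in 7 of 9 and 35S:NGA 2 the lowest in 7 of 9, beside 37.8% and 31.1% of the genes tested. Among the 8 genes tested the spread was widest for SEN1 in 35S:NGA, where the highest library held 5.82 times the level of the lowest, and for ASN1 in nga, with 4.16 times.

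Clock genes moved with nga 2. CCA1 and LHY, morning-phased clock transcription factors, stood at 132 and 115 RPKM in nga 2 and at 0.460 to 2.86 RPKM and 0.482 to 1.19 RPKM in the other libraries. The sum of 5 morning genes was 550.0 RPKM in nga 2, 5.14 and 5.01 RPKM in WT, and 14.0 to 22.2 RPKM in the remaining libraries. In those remaining libraries as a set CCA1 and LHY overlapped WT, but RVE1 measured 7.95 to 18.4 RPKM, beside 3.55 and 2.21 RPKM in WT. In 35S:NGA 2 and 35S:NGA 3, though, the 5 morning genes all stood above both WT libraries. CCA1, for one, measured 2.86 and 2.17 RPKM there, beside 0.460 and 0.824 RPKM in WT. The median log2 difference of the morning genes from the WT mean was 1.24 and 0.96 there, beside 5.55 in nga 2. The sum of 6 evening genes was 520.0 RPKM in nga 2 against 4060 to 7260 RPKM elsewhere. Most of the evening sum was GRP7, at 444 RPKM in nga 2 and 3920 to 7020 RPKM elsewhere. TOC1 was closer, at 50.4 RPKM beside 59.0 to 145 RPKM, and GI lay within the range of the other libraries, at 11.3 RPKM beside 8.00 to 27.7 RPKM. None of these genes was at 0 in any library. Without nga 2 the differences of nga from WT were 6.88 in SEN1, 3.33 in ASN1, 2.45 in AKINBETA1, 2.12 in DIN10, 1.85 in TPS8, 1.51 in BGAL4, 1.26 in TPS11 and 0.92 in TPS10, so each was smaller and none changed sign.

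Green tissue markers, 16 photosynthesis genes, summed to 4490 and 4560 RPKM in WT, 5200, 8970 and 5040 RPKM in nga and 4830, 5030 and 11200 RPKM in 35S:NGA. Among the nga libraries the highest sum belonged to nga 2, the highest library in 9 of 9 genes. Among those of 35S:NGA it belonged to 35S:NGA 3, the highest library in 1 of the 9 genes, ASN1, and in 33.1% of the genes tested. The 8 mature pollen markers summed to 23.1 and 54.5 RPKM in WT and to between 58.3 and 233 RPKM in the lines, and AGP11 was at 0 in 6 of the 8 libraries. The 8 tapetum and microspore markers summed to 15.0 and 44.4 RPKM in WT and to between 23.5 and 53.6 RPKM in the lines. By limma 2 of the 3 tested were called higher in nga than in WT. LAP6 measured 25.9, 28.6 and 20.1 RPKM beside 16.2 and 10.3 RPKM in WT. TKPR1 measured 11.2, 8.49 and 9.58 RPKM beside 3.95 and 3.72 RPKM. MS2, the other tested, was not called, with 0.370, 14.0 and 0.0701 RPKM in nga beside 9.37 and 0.0831 RPKM in WT. Of those not tested, A9, AMS and ACOS5 were highest in WT 1, at 10.8, 1.20 and 2.53 RPKM. MS1 was highest in nga 2, at 1.02 RPKM, and LAP5 in nga 1, at 0.147 RPKM. In the same comparison, where limma called 9.26% of all genes higher and 7.65% lower, it called 1 of 16 green tissue markers higher. It called none of 5 tested pollen markers, and of the 9 carpel markers 2 higher and 1 lower. The part of these cells in the levels of the 9 genes was not tested.

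Genes that tracked SEN1 and ASN1 most closely over the 8 libraries were found by Pearson's r on log2(RPKM + 1) among all genes tested with a symbol. For SEN1 they were AGT3, an alanine:glyoxylate aminotransferase (r = 0.997), PLPB, a PAS/LOV domain protein (0.991), RPL18AA, a ribosomal protein gene (0.989), DCP2, of mRNA decapping (0.985), and BRIZ1 (0.984). AGT3 measured 11.4 and 9.75 RPKM in the WT libraries, 63.4, 94.6 and 56.4 RPKM in those of nga and 58.7, 28.9 and 47.9 RPKM in those of 35S:NGA. As in SEN1 the WT libraries were lowest and nga 2 highest, but here 35S:NGA 1 lay above nga 3. For ASN1 they were BCDH BETA1, a subunit of the branched-chain keto acid dehydrogenase (0.996), PP2A-4, a phosphatase subunit (0.996), APX6, an ascorbate peroxidase (0.996), AFB5, an auxin receptor (0.989), and ARL2 (0.989). Among the group itself, DIN10 was closest to SEN1 (0.968) and AKINBETA1 closest to ASN1 (0.951), while TPS8 and TPS11 gave the highest value of all pairs (0.973). Over the 6 libraries without WT, AKINBETA1 (0.958) and ASN1 (0.934) were closer to SEN1 than DIN10 (0.913), AKINBETA1 was still closest to ASN1 (0.938), and TPS8 and TPS11 were still the highest pair (0.961). These values describe 8 libraries that fall into 3 genotypes and share lanes.

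The wider pathway was read in 11 lists of 121 genes that hold none of the 9, of which 104 were tested. In nga against WT 23 rose and 6 fell by limma, together 27.9% of those tested, beside 16.9% of all genes, of which 9.26% rose and 7.65% fell. In 35S:NGA against WT none was called (limma), where 0.152% of all genes were, while 39 had an unadjusted p under 0.05, as did 3629 of all genes, and limma voom on the recovered reads called none either. In 35S:NGA against nga 8 rose and 2 fell by limma, 9.62% beside 5.34% of all genes, of which 3.72% rose and 1.62% fell. The 2 comparisons with WT share its libraries. The lists were chosen with earlier results of these data known, and nga against WT is the comparison that picked the 9 genes. So these shares are a description, and nothing is read from them.

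**Figure D3:**
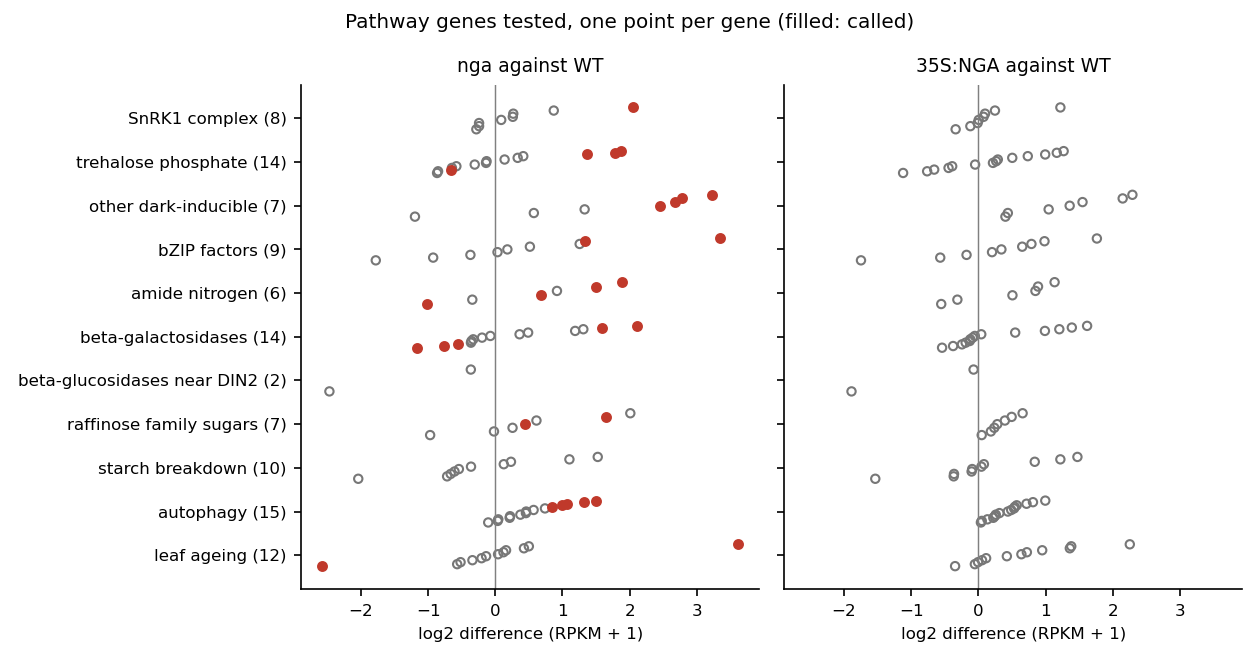
Difference from WT of the 104 tested pathway genes on the log2(RPKM + 1) scale, 1 point per gene, in 11 lists with the number tested in brackets; filled points were called by limma. In nga 23 filled points lie above 0 and 6 below, and in 35S:NGA there are none.

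Of the 8 tested genes of the SnRK1 complex and its upstream kinases, 1 was called. KING1, a gamma-type subunit, rose by 2.05 ± 0.40 in nga (limma, adjusted p = 0.0205), from 27.1 and 19.2 RPKM in the WT libraries to 115, 142 and 56.0 RPKM in the nga libraries, and stood at 72.7, 40.0 and 55.6 RPKM in 35S:NGA. The catalytic subunit KIN10 measured 44.4 and 37.5 RPKM in the WT libraries, 50.1, 57.1 and 42.0 RPKM in those of nga and 53.4, 35.3 and 42.6 RPKM in those of 35S:NGA, a difference of 0.27 ± 0.20 in nga. KIN11 differed by 0.26 ± 0.19 and the other beta subunits AKINBETA2 and AKINBETA3 by -0.28 ± 0.21 and 0.09 ± 0.12, none past the threshold.

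**Figure D4:**
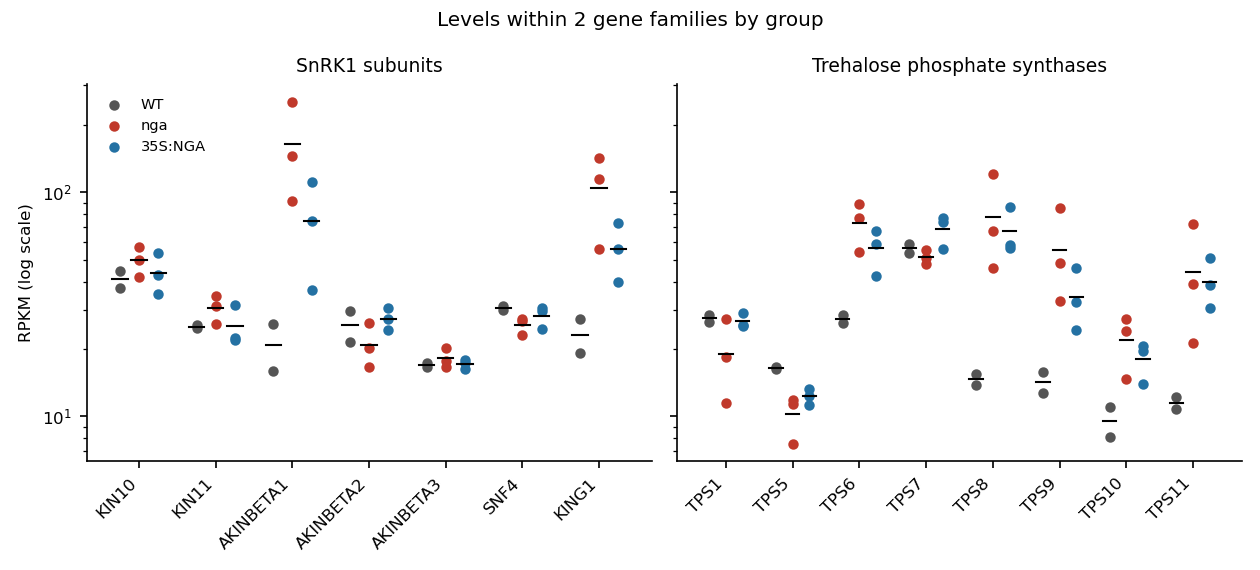
Level in RPKM on a log axis of SnRK1 subunits and trehalose phosphate synthases, with 1 point per library and a short line at each group mean. AKINBETA1 and KING1 spread upward in both lines, to 254 and 142 RPKM in nga 2, while KIN10 lies between 35.3 and 57.1 RPKM in all 8 libraries.

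In trehalose phosphate metabolism, 3 of 14 tested genes rose and 1 fell in nga. TRE1, the trehalase that splits trehalose into glucose, rose by 1.87 ± 0.23 (limma, adjusted p = 0.00792), from 11.4 and 7.76 RPKM to 32.3, 46.9 and 33.6 RPKM. Among further class II synthases TPS6 rose by 1.37 ± 0.25 and TPS9 by 1.78 ± 0.39, while TPS5 fell by 0.65 ± 0.19, with limma adjusted p of 0.0179, 0.0251 and 0.0485. TPS1, the main active synthase, differed by -0.58 ± 0.29 and was not called (limma, adjusted p = 0.182). TPPG, a trehalose phosphate phosphatase, was higher in 35S:NGA than in nga by 0.81 ± 0.16 (limma, adjusted p = 0.0296).

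Of 7 other tested dark- and starvation-inducible genes, 4 rose in nga. DIN4, a subunit of the branched-chain keto acid dehydrogenase, went from 44.1 and 26.2 RPKM in the WT libraries to 223, 366 and 168 RPKM in the nga libraries (2.78 ± 0.49, limma, adjusted p = 0.0166). The dormancy-associated DRM1 and DRM2 rose by 2.46 ± 0.45 and 2.68 ± 0.49, and DRM1 reached a mean of 1310 RPKM in nga from 233 RPKM in WT. KMD4, an F-box protein gene, rose by 3.22 ± 0.64. For DRM1 and DRM2 the highest nga library was nga 1 (1720 and 1160 RPKM), not nga 2. EXL1, an EXORDIUM-like gene with a part in the response to low carbon, went the other way between the lines: it measured 6.47, 15.4 and 6.99 RPKM in the nga libraries and 35.5, 73.4 and 37.2 RPKM in those of 35S:NGA, a rise of 2.24 ± 0.43 (limma, adjusted p = 0.026).

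Of 9 bZIP factors of the C and S1 groups, known partners in the energy response, 2 rose in nga. The largest change was that of bZIP9, which went from 15.4 and 10.9 RPKM in the WT libraries to 128, 185 and 117 RPKM in the nga libraries (3.35 ± 0.36, limma, adjusted p = 0.00508). It stood at 52.4, 28.0 and 67.5 RPKM in 35S:NGA, lower than nga by -1.58 ± 0.32 (limma, adjusted p = 0.0316). The SnRK1 target bZIP63 rose by 1.34 ± 0.35 (limma, adjusted p = 0.0384). For bZIP11, a factor whose translation sucrose represses, WT stood at 17.8 and 25.2 RPKM and nga at 4.44, 1.60 and 18.1 RPKM, a difference of -1.78 ± 0.76 that was not called (limma, adjusted p = 0.132).

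Among 6 genes of amide nitrogen and amino acid use, 3 rose and 1 fell in nga. The glutamate dehydrogenases GDH2 and GDH1 rose by 1.88 ± 0.44 and 0.67 ± 0.18, and PRODH1, a proline dehydrogenase, was called too (limma, adjusted p = 0.0452). ASN3, a relative of ASN1, fell by 1.01 ± 0.16 (limma, adjusted p = 0.0128), from 24.1 and 23.4 RPKM to 11.2, 9.34 and 13.7 RPKM, while ASN2 differed by -0.34 ± 0.21 and was not called. Of 14 beta-galactosidases 2 rose, BGAL2 by 2.11 ± 0.47 and BGAL12 by 1.58 ± 0.34, and 3 fell, BGAL10 by 1.16 ± 0.24, BGAL8 by 0.76 ± 0.21 and BGAL3 by 0.56 ± 0.14. BGAL12 was lower in 35S:NGA than in nga by -1.66 ± 0.30 (limma, adjusted p = 0.0201).

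Autophagy genes, which recycle cell contents, counted 5 called higher of 15 and none lower in nga. They were ATG8A, ATG8E, ATG8F and ATG8I, forms of the protein that coats the forming vesicle, and ATG13A (AT3G49590), of the kinase complex that starts it, with differences from 0.84 to 1.49. ATG8F went from 72.0 and 50.8 RPKM in the WT libraries to 159, 197 and 112 RPKM in the nga libraries. Of 7 tested genes of raffinose family sugars 2 rose, among them RS2, of the same family as DIN10, by 1.65 ± 0.40. AGAL2, an alpha-galactosidase, was higher in 35S:NGA than in nga by 1.47 ± 0.31. None of 10 genes of starch breakdown and neither of the 2 tested beta-glucosidases related to DIN2 was called in any comparison. In nga against WT 5 and 1 of them had an unadjusted p under 0.05 by limma, as did 6465 of all 17786 genes.

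Of 12 tested leaf ageing genes 1 rose and 1 fell in nga against WT, about the share of all genes called there, 16.9%. NAP, a NAC factor that drives leaf ageing, rose by 3.61 ± 0.68 in nga (limma, adjusted p = 0.0191), from 0.628 and 0.346 RPKM to 15.8, 44.8 and 6.73 RPKM. SAG13, a short-chain dehydrogenase gene, did the reverse. It stood at 5.07 and 5.18 RPKM in WT, was listed at 0 in nga 1 and nga 2 and at 0.0811 RPKM in nga 3, and reached 10.3, 11.7 and 10.6 RPKM in 35S:NGA. It fell by 2.58 ± 0.14 in nga against WT (limma, adjusted p = 0.000311), a size that depends on the pseudocount and ran from -7.87 to -1.01 over the alternatives, and 35S:NGA stood above nga by 3.53 ± 0.12 (limma, adjusted p = 1.09e-05). The ageing regulators WRKY6 and ORE1 and the stress gene SAG21 were also called higher in 35S:NGA than in nga, by 1.29 ± 0.24, 1.24 ± 0.25 and 1.34 ± 0.28. In nga WRKY6 was low, at 0.196 to 0.223 RPKM, as was ORE1, at 0.468 to 1.58 RPKM. Their sizes ran from 0.43 to 3.18 and from 0.52 to 1.97 over the alternatives. With the lane as a term ORE1 and SAG21 were not called, nor were bZIP9, BGAL10, BGAL12, EXL1, TPPG and AGAL2 between the lines. That left 2 of the 10 pathway calls in 35S:NGA against nga, SAG13 and WRKY6, while calls over all genes went from 949 to 145. SAG12, the usual marker of late leaf ageing, was at or below 0.684 RPKM in every library and was not tested.

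Many of these pathway calls were lost without single libraries, as were those of all genes, which numbered 3008 in nga against WT, 41 without WT 1 and 47 without WT 2. Sizes moved by unlike amounts over all alternatives. For nga against WT, DRM2 lay between 2.27 and 3.24 and TPS6 between 1.22 and 1.57. NAP lay between 2.07 and 5.19 and KMD4 between 2.13 and 3.85. Of the 29 in nga against WT, leaving out WT 1 lost 26 and leaving out WT 2 lost 28. Leaving out nga 1 or nga 3 lost 24 and 2 calls, and 13 of the 29 were still called without nga 2. SAG13 was called without any single library. For bZIP9 and TRE1 the call was lost without WT 2 alone, at limma adjusted p of 0.065 and 0.0916. Of the 10 in 35S:NGA against nga, leaving out nga 1 or nga 2 lost 9 and 5, and leaving out 35S:NGA 2 or 35S:NGA 3 lost 8 and 7.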

How the data were processed

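Per the labels and file headers, the authors deposited RPKM for 33590 entries in each of 8 libraries (TruSeq, Illumina HiSeq), written with decimal commas, and named FastQC and TAIR10 in the submitters' processing notes. No source used here names the aligner or the read counter. Entries without a gene model (6374, all 0), 18 entries of 9 repeated loci and 1 malformed entry were left out. Coordinates and promoters are RefSeq's TAIR10.1.

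Tests used limma 3.58.1 in R 4.3.3 on log2(RPKM + 1) with a mean-variance trend, all 8 libraries and 3 groups as terms, a filter at 1 RPKM met by at least 2 libraries, and Benjamini-Hochberg adjustment within each comparison. The files were recorded as another unit because decimal commas could not be read as RPKM. Whole reads came out within 0.01 for 99.99% of the tested genes in all libraries, from the deposited RPKM steps, and limma voom on them was an alternative added after the data were seen, as was leaving out nga 2 with the lane 8 libraries. The fit was tested on simulated data. The 9 genes and the 11 pathway lists were chosen with earlier results of these data known. Named pathway genes were up to 3 called genes a list by p, and the 5 genes most like SEN1 and ASN1; KIN10, KIN11, AKINBETA2, AKINBETA3, TPS1, TPS5, TPS9, KMD4, EXL1, bZIP11, PRODH1, ASN2, BGAL3, BGAL8, ATG8A, ATG8E, ORE1, SAG21 and SAG12 were added after their values were seen. Other alternatives were quantile normalization, library medians set equal, no filter, a mean of at least 5 RPKM, pseudocounts of 0.1 and 5, fits without the third group, a replicate block, the lane as a term, lane 6 only, no lane 8 libraries and leaving out each library. Intervals for counts were not used, and depth limits DIN2 most. Python 3.11.15, numpy 2.4.6, pandas 2.3.3 and matplotlib 3.10.9 were used.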

Additional observations from a re-analysis of the deposited data

How the results depend on the processing

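The differences of the 8 tested genes from WT stayed above 0 in nga under all 21 alternatives and in 35S:NGA under all 20 that could be fitted; lane 6 holds no 35S:NGA library. For nga against WT their median ran from 1.98 to 2.50. Between the lines it ran from -0.69 to -0.05 without single libraries, and was 0.0024 with the lane as a term. Members called in 35S:NGA against WT, 1 in the fit as reported, were 0 with no filter, with a pseudocount of 5, with the lane as a term and with voom, 3 with only the 2 groups compared, 2 without the lane 8 libraries, and 0 to 3 without single libraries. Pathway genes called there, 0 as reported, were 1 with quantile normalization, 1 with no filter, 1 with a pseudocount of 5, 3 with only the 2 groups, 4 without the lane 8 libraries, 6 without nga 2 and the lane 8 libraries, and 0 to 3 without single libraries. In nga against WT the 29 became 47 with the lane as a term, 45 within lane 6, 47 without the lane 8 libraries, and 1 to 43 without single libraries. In 35S:NGA against nga the 10 became 6 with only the 2 groups, 2 with the lane as a term, 2 without nga 2 and the lane 8 libraries, and 1 to 17 without single libraries. The causes were not tested. Without WT 1 or WT 2 the lone WT library is assumed to vary like the others.

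Whether replicate numbers pair the libraries was not settled. Correlations of deviations ran from -0.26 to 0.367 for same-numbered libraries and from -0.367 to 0.26 for differently numbered ones. With only 2 WT libraries the WT deviations mirror each other, so these values are not independent. With the replicate block, members called in 35S:NGA against WT were 0, pathway genes called were 1 there, 36 for nga against WT and 8 between the lines.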
